A study of Homo sapiens with 5 samples.

Results

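The transcripts described here are those of 10 genes, OPRK1, CITED2, PEG3, PRKACB, UGT2B15, UGT2B17, UGT2B11, DDC, BCHE and MET, which were listed together as genes whose messenger RNA is lowered by androgen in prostate cells or as UGT2B enzymes that inactivate androgens. They were found as every probe set whose platform annotation names a listed gene, alone or together with another listed gene, which gave 18 of the 22215 probe sets on the array. Of the 10 genes, 9 had at least 1 probe set. The annotation named none for UGT2B11, which was not analysed here. The probe set 207392_x_at is shared by UGT2B17 and UGT2B15, and the other 17 each name 1 gene.

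LNCaP is a human prostate cancer cell line, derived from a lymph node metastasis, that carries the androgen receptor and responds to androgen. The cells were grown in RPMI medium with serum and exposed for 6 h either to celastrol at 1.25 µM or to its solvent DMSO. Celastrol is a triterpenoid from the thunder god vine. There were 2 celastrol arrays and 3 DMSO arrays, each described by the labels as a biological replicate of 1 cell line. The labels name no genetic change. All cells were kept in serum, with no group deprived of androgen or given added androgen.

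The androgen receptor is a transcription factor that raises the transcription of many prostate genes when it binds androgen and lowers that of others, so that androgen-repressed genes tend to climb when androgen is withdrawn. Among them are enzymes of the UGT2B family. These enzymes of the endoplasmic reticulum attach glucuronic acid to dihydrotestosterone and its metabolites, which makes the steroids water-soluble and inactive. In prostate cells UGT2B15 and UGT2B17 are the main enzymes of this reaction, and androgen is known to lower their transcripts, which places them in a feedback on androgen itself.

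The array labelled DMSO replicate 3 had a profile unlike the other 4. Its correlation with them over all probe sets was 0.843 to 0.844, against 0.994 to 0.998 among the 4. Set against the mean of the other DMSO arrays, all 10 measured markers of luminal prostate epithelium stood over 2-fold lower there and 8 of 11 leukocyte markers over 2-fold higher. Summed over its 11 genes, the leukocyte list gave an intensity of 799 and 820 on the celastrol arrays, 878 and 877 on DMSO replicates 1 and 2, and 20089 on DMSO replicate 3. The luminal list summed to 15652 and 15154 on the celastrol arrays, 16008 and 16299 on DMSO replicates 1 and 2, and 266 on DMSO replicate 3. On the 4 arrays that were compared, 10 of the 11 leukocyte markers stayed between 4.06 and 4.77 as log2(intensity + 1), near the lower end of the scale, among them the B cell genes MS4A1 and CD79A. The eleventh, LCP1, an actin-bundling protein gene that some tumour cells also express, stood at 9.24 and 9.28 with celastrol and at 9.41 on both DMSO arrays, and gave most of the summed intensity there. The values of DMSO replicate 3 are therefore given apart, and celastrol was compared with DMSO replicates 1 and 2. Total intensity was between 4939400 and 5348500 on all 5 arrays, and having so few arrays limits how precise any value can be.

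Levels below are log2(intensity + 1), where a difference of 1 is a doubling, and a change is the celastrol mean minus the DMSO mean of those levels, a scale on which dim probe sets change less than their RNA does. The comparison asks which of these transcripts differ after 6 h with celastrol. OPRK1, PEG3 and CITED2, the last on 1 of its 2 probe sets, fell with celastrol, by 1.93-fold to 2.88-fold. PRKACB and the probe set shared by UGT2B17 and UGT2B15 had changes between -0.33 and -0.19 that did not pass the test. The other probe sets of UGT2B15 and UGT2B17 and those of DDC, BCHE and MET had changes between -0.19 and 0.10. Of the 13 member probe sets bright enough to be tested, 4 passed, all lower, against 0.405% of the 13329 probe sets tested that passed on the lower side and 0.503% on the higher side. The test was limma's moderated test with Benjamini-Hochberg adjustment over those 13329 probe sets, and the threshold was an adjusted p of 0.05. The genes were listed with earlier results of these data known, so this count is a description of them and not independent evidence.

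**Figure D1:**
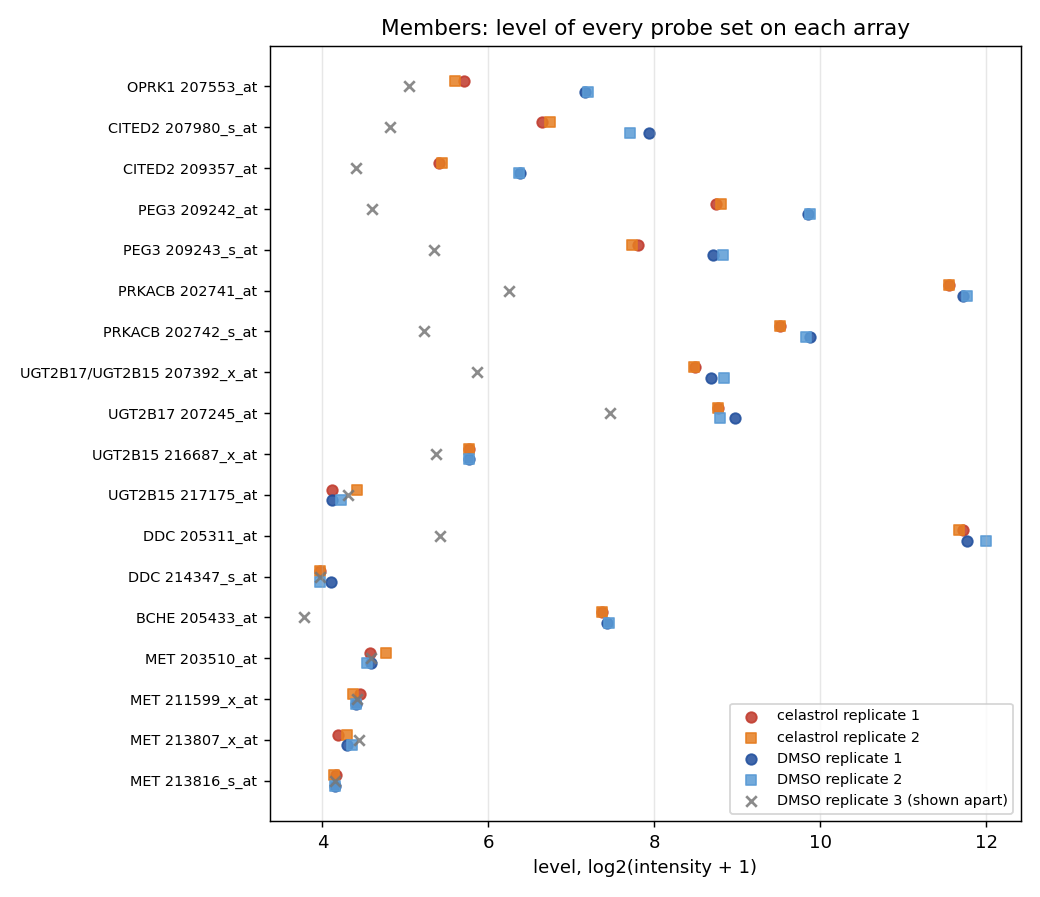
Level of each of the 18 member probe sets, as log2(intensity + 1), with 1 point per array. For OPRK1, CITED2 and PEG3 both celastrol points lie to the left of both points of DMSO replicates 1 and 2, and DMSO replicate 3, drawn as a cross, lies further left; the 4 probe sets of MET lie between 4.14 and 4.77 on all 5 arrays.

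OPRK1 encodes the kappa opioid receptor, a G protein-coupled receptor for dynorphin peptides that lowers cyclic AMP. Its probe set 207553_at had an intensity of 51.4 and 47.6 on the celastrol arrays, against 142 and 147 on DMSO replicates 1 and 2. On the log2 scale these are 5.71 and 5.60 with celastrol, against 7.16 and 7.21 with DMSO. Both celastrol arrays lay far below both DMSO arrays, and the gap between the groups was many times the gap within either. The change was -1.52 (SE 0.0539, 95% interval -1.69 to -1.36), a 2.88-fold lower intensity, with a limma adjusted p of 0.0324. It stood at the 0.0225th percentile of the changes of all probe sets. On DMSO replicate 3 the level was 5.05, below both celastrol arrays.

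The other opioid receptor genes stood near the lower end of the scale. Of 8 measured genes for opioid receptors, opioid peptides and arrestins, 7 were below the filter on brightness, among them OPRM1, OPRD1 and OPRL1, and 1 was tested. That gene, ARRB1, which encodes a beta-arrestin that uncouples receptors from G proteins, had 5.43 and 5.56 with celastrol and 5.43 and 5.56 with DMSO, a change of 0.00 (SE 0.0778, limma adjusted p = 0.995).

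CITED2 encodes a coactivator-binding protein that attaches to CBP and p300 and competes with HIF1A for them. Its probe set 209357_at stood at 5.40 and 5.44 with celastrol, against 6.38 and 6.37 with DMSO. The groups did not overlap, and each pair of replicates lay within 0.0388. The change was -0.95 (SE 0.0298, 95% interval -1.04 to -0.86), a 1.93-fold lower intensity that passed (limma adjusted p = 0.0315). The second probe set, 207980_s_at, had 6.65 and 6.75 with celastrol and 7.94 and 7.71 with DMSO. It differed by -1.13 (SE 0.102), the larger change of the pair, but its DMSO replicates lay 0.229 apart and it missed the threshold (limma adjusted p = 0.0673). After quantile normalization or median centring of the 4 arrays it passed, with adjusted p of 0.0283 and 0.0357. DMSO replicate 3 gave 4.41 and 4.81 for these probe sets.

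CITED2 is the only one of the 3 genes that fell with a promoter in the RefSeq table used here. Its first listed start is preceded by these 250 bases of GRCh38.p14, on the minus strand at chr6:139374649-139374898, shown 5′ to 3′ because this is the promoter of a called member.
CITED2: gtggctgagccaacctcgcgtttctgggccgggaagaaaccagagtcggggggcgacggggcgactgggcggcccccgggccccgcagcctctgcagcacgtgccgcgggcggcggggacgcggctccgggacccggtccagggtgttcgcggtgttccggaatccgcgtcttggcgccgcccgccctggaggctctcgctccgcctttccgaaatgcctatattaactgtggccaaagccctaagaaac
In these bases a search on both strands found no androgen receptor half-site (AGAACA), no heat shock element core (GAANNTTC) and no antioxidant response element core (TGACNNNGC), so no letter is in capitals. Of 35114 promoters of that length, 12.4% hold the first motif, 5.78% the second and 10.9% the third. G and C make up 70% of the bases. The absence of these letters says only that they are not in this window.

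The partners of CITED2 varied in direction. Of 8 measured genes of the CITED family and the CBP and p300 partners, 5 were tested and 0 passed limma's test, with 2 at an unadjusted p under 0.05, which 18.8% of the 13329 probe sets tested also reached. Of these 5, 3 had changes below 0, and the median was -0.06, against -0.02 over all probe sets tested. TFAP2C, an AP-2 transcription factor, had 5.51 and 5.30 with celastrol and 6.24 and 6.14 with DMSO, a change of -0.78 (SE 0.0973, limma adjusted p = 0.0897). CREBBP, which encodes CBP, had 6.70 and 6.61 with celastrol and 6.35 and 6.43 with DMSO, a change of 0.27 (SE 0.0547, limma adjusted p = 0.152).

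PEG3 encodes a large zinc finger protein and is expressed from the paternal copy only. Its probe set 209242_at had an intensity of 427 and 446 with celastrol, against 927 and 941 with DMSO, or 8.74 and 8.81 against 9.86 and 9.88 on the log2 scale. The groups were well apart and the replicates close together. The change was -1.10 (SE 0.0372, 95% interval -1.21 to -0.98), a 2.14-fold lower intensity that passed (limma adjusted p = 0.0322). The second probe set, 209243_s_at, had 7.81 and 7.73 with celastrol, against 8.70 and 8.82 with DMSO. Its change was -0.99 (SE 0.0635), a 1.99-fold lower intensity, and it passed narrowly (limma adjusted p = 0.0491). Both probe sets of PEG3 thus gave nearly the same size of fall. On DMSO replicate 3 they stood at 4.60 and 5.34.

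Other imprinted genes were tested in small number. Of 13 measured, 4 were tested and 0 passed, 2 of them at an unadjusted limma p under 0.05, against 18.8% of all probe sets tested. All 4 had changes below 0, as did 7478 of the 13329 probe sets tested. Their median was -0.31, against -0.02 over all probe sets tested. MEST had 6.66 on both celastrol arrays and 7.10 and 7.00 on the DMSO arrays, a change of -0.39 (SE 0.0491, limma adjusted p = 0.0924). GRB10, an adaptor that binds insulin receptor kinases, had 11.00 and 11.05 with celastrol, against 11.37 and 11.50 with DMSO, a change of -0.41 (SE 0.0618, limma adjusted p = 0.11). All 4 tested genes stood over 2-fold lower on DMSO replicate 3 than the mean of DMSO replicates 1 and 2, against 16.9% of all probe sets tested. The brightness filter did not use that array. Of all 13 measured, 4 stood over 2-fold lower there and 3 over 2-fold higher.

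**Figure D2:**
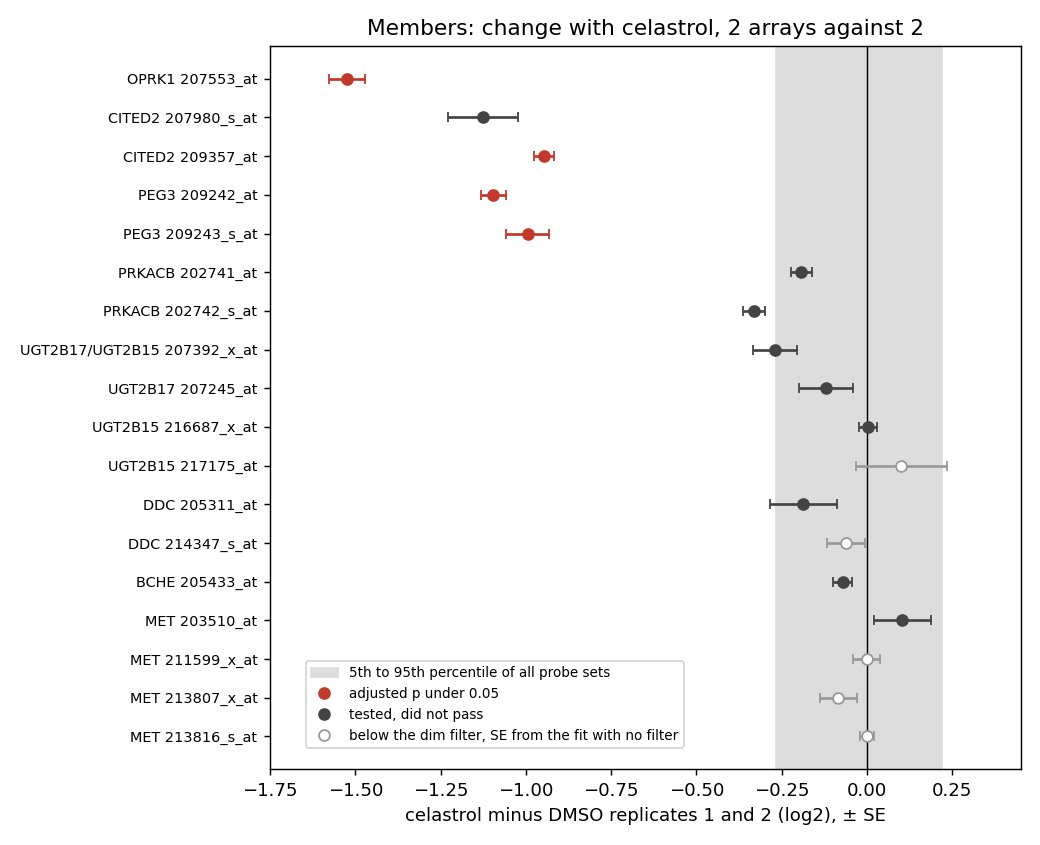
Change of each member probe set, celastrol minus DMSO replicates 1 and 2 on the log2 scale, with its SE from limma over 2 arrays a group; open points are probe sets below the brightness filter. The probe sets of OPRK1, CITED2 and PEG3 lie between -1.52 and -0.95, left of the grey band from -0.27 to 0.22 that holds 90% of all probe sets, and those of PRKACB and the shared UGT2B17 and UGT2B15 probe set lie near its left edge.

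These falls depend on how the test is set up. With no filter on brightness, where all 22215 probe sets are tested and 0.0045% pass on the lower side, the adjusted p was 0.0622 for OPRK1, CITED2 209357_at and PEG3 209242_at and 0.0873 for PEG3 209243_s_at. With the filter set at the dimmest 20% the last of these also missed the threshold (limma adjusted p = 0.0717). All 4 calls were lost whichever of the 4 arrays was left out, celastrol replicate 1 or 2 or DMSO replicate 1 or 2, with limma adjusted p between 0.103 and 0.157, while the change of OPRK1 stayed between -1.58 and -1.47, that of CITED2 209357_at between -0.97 and -0.93, and those of PEG3 between -1.13 and -1.06 and between -1.05 and -0.93.

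PRKACB encodes the beta catalytic subunit of protein kinase A, the kinase that cyclic AMP releases from its regulatory subunits. Its probe set 202742_s_at stood at the identical value of 9.52 on both celastrol arrays, against 9.87 and 9.83 with DMSO. The change was -0.33 (SE 0.0312, 95% interval -0.43 to -0.23) with a limma adjusted p of 0.0692. Its probe set 202741_at was at 11.55 on both celastrol arrays, again an identical value, against 11.72 and 11.77 with DMSO, a change of -0.19 (SE 0.0311, limma adjusted p = 0.119). Neither passed, although the groups did not overlap for either. On DMSO replicate 3 they stood at 5.23 and 6.25.

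The other genes of this kinase system did not pass either. Of 15 measured genes for subunits, inhibitors, anchors and nuclear targets of protein kinase A, 11 were tested and 0 passed, 4 at an unadjusted limma p under 0.05 against 18.8% of all probe sets tested, with 8 below 0 and a median of -0.15. PRKACA, the alpha catalytic subunit, had 8.20 on both celastrol arrays and 8.22 and 8.21 on the DMSO arrays, a change of -0.02 (SE 0.0252). CREM, a cyclic AMP-responsive transcription factor, had 6.15 and 6.34 with celastrol and 5.77 and 5.82 with DMSO, a change of 0.45 (SE 0.083, limma adjusted p = 0.134). CREB1, its relative that protein kinase A phosphorylates, had 7.97 and 7.92 with celastrol and 8.24 and 8.14 with DMSO, a change of -0.25 (SE 0.0502, limma adjusted p = 0.153).

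No tested probe set of UGT2B17 or UGT2B15 passed between celastrol and DMSO, and the shared one had the largest change. The probe set shared by UGT2B17 and UGT2B15, 207392_x_at, had 8.50 and 8.48 with celastrol and 8.69 and 8.83 with DMSO. Both celastrol arrays were lower than both DMSO arrays, with a change of -0.27 (SE 0.0647, 95% interval -0.47 to -0.07) that did not pass (limma adjusted p = 0.183). The probe set of UGT2B17 alone, 207245_at, had the identical value of 8.76 on both celastrol arrays, against 8.98 and 8.79 with DMSO, a change of -0.12 (SE 0.079, 95% interval -0.37 to 0.13, limma adjusted p = 0.533). Its DMSO replicates lay 0.187 apart, more than the difference between the group means.

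The annotation names UGT2B15 alone for 2 probe sets, neither of which separated the groups. Whether they also read other UGT2B transcripts was not tested. The first, 216687_x_at, had the identical value of 5.77 on both celastrol arrays and DMSO replicate 2, and 5.76 on DMSO replicate 1. The change was 0.00 (SE 0.0253, 95% interval -0.08 to 0.08, limma adjusted p = 0.969). With these identical values the SE comes mostly from the variance that limma borrows from other probe sets. The second, 217175_at, was below the filter on brightness, at 4.12 and 4.42 with celastrol and 4.12 and 4.22 with DMSO, and its celastrol replicates lay 0.304 apart. The shared probe set and the first of these thus gave unlike changes, and the signal of the shared probe set cannot be divided between UGT2B17 and UGT2B15.

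On DMSO replicate 3 the UGT2B17 probe set stood at 7.46, a difference of -1.42 from the mean of DMSO replicates 1 and 2. The shared probe set stood at 5.86 there, a difference of -2.90, and the first UGT2B15 probe set at 5.37. The promoters of UGT2B15 and UGT2B11 were also set side by side. The 250 bases before the listed start of UGT2B15, on the minus strand of GRCh38.p14 at chr4:68670653-68670902, and of UGT2B11, on the minus strand at chr4:69214749-69214998, are shown to let the pair be compared, with capitals at an androgen receptor half-site in UGT2B15 and at an antioxidant response element core, read on the other strand, in UGT2B11.
UGT2B15: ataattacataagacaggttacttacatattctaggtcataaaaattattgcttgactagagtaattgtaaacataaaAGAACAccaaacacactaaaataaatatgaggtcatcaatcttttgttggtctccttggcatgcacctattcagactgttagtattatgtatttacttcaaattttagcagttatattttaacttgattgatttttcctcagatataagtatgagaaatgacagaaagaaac
UGT2B11: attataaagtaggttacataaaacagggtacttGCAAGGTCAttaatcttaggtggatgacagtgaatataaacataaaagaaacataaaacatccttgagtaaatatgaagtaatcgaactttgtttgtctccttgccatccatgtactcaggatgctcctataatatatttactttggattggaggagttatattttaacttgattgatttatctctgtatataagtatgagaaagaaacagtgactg
A global alignment of the pair placed 239 bases opposite each other, of which 185, or 77.4%, were identical. No other pair was aligned, so this share has no baseline. Of the 14 promoters that the RefSeq table lists for 7 of the 10 genes, 4 held the half-site AGAACA on either strand, 3 of PRKACB and 1 of UGT2B15. The heat shock element core was in 1 and the antioxidant response element core in 2, BCHE holding both and UGT2B11 the antioxidant one. Of 35114 promoters of that length, 12.4% hold the half-site, 5.78% the heat shock core and 10.9% the antioxidant core. These matches are a description of the letters and not of binding.

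The rest of the glucuronidation pathway was mostly dim. Of 14 measured genes for other UDP-glucuronosyltransferases and for the supply of UDP-glucuronate, 6 were tested and 0 passed, with a median of 0.01. An unadjusted limma p under 0.05 was reached by 1 of the 6, against 18.8% of all probe sets tested. UGDH, which makes UDP-glucuronate, the sugar donor of these enzymes, had 8.17 and 8.08 with celastrol and 7.04 and 7.43 with DMSO. It was higher on both celastrol arrays, with a change of 0.89 (SE 0.158, a 1.85-fold higher intensity). Its DMSO replicates were far apart, and it did not pass (limma adjusted p = 0.13). A probe set naming both UGDH and PGD, 201118_at, had 9.55 and 9.42 with celastrol and 8.98 and 9.01 with DMSO. Its change of 0.49 (SE 0.0573, limma adjusted p = 0.0837) did not pass either, and its signal cannot be divided between UGDH and PGD. SLC35B1, a nucleotide sugar transporter gene, had a change of 0.08 (SE 0.0359, limma adjusted p = 0.418). UGT2B28 read 5.50 on all 4 arrays compared, with identical values, and 5.05 on DMSO replicate 3.

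Enzymes that form or remove androgens by other routes included 1 called gene. Of 20 measured, 10 were tested, 1 rose and 0 fell, and the median was 0.03. Over the 8091 genes tested by 1 probe set each, 0.569% passed on the higher side and 0.47% on the lower side. An unadjusted limma p under 0.05 was reached by 3 of the 10, against 18.8% of all probe sets tested. AKR1C1, an aldo-keto reductase that acts on steroids, rose to 7.59 and 7.36 with celastrol, against 5.72 and 5.78 with DMSO. The change was 1.72 (SE 0.0974), a 3.30-fold higher intensity (limma adjusted p = 0.0467), and its second probe set, 216594_x_at, had a change of 1.89 with an adjusted p of 0.0788. AKR1C2 had changes of 1.89 on 209699_x_at (limma adjusted p = 0.0605), 0.98 on 211653_x_at and 0.00 on 217626_at, and none of these passed. AKR1C1 and AKR1C2 are near-identical in sequence, so their probe sets may read one another.

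DDC encodes aromatic L-amino acid decarboxylase, which makes dopamine and serotonin from their amino acid precursors and is used as a marker of neuroendocrine cells. Its probe set 205311_at had an intensity of 3384 and 3266 with celastrol, against 3494 and 4097 with DMSO, or 11.72 and 11.67 against 11.77 and 12.00 on the log2 scale. The groups did not overlap, but the DMSO replicates lay 0.23 apart, more than the change of -0.19 (SE 0.0974, 95% interval -0.49 to 0.12, limma adjusted p = 0.467). The probe set 214347_s_at was below the filter on brightness, between 3.97 and 4.10 on all 5 arrays. On DMSO replicate 3 the first probe set stood at 5.41, a difference of -6.47 from the mean of the other DMSO arrays, the widest such gap among the members.

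Of 11 measured genes of monoamine synthesis and breakdown, 5 were tested and 0 passed, with a median of -0.13. An unadjusted limma p under 0.05 was reached by 2 of the 5, against 18.8% of all probe sets tested. MAOA, monoamine oxidase A, had 10.50 and 10.47 with celastrol and 11.43 and 11.29 with DMSO, a change of -0.88 (SE 0.0654, limma adjusted p = 0.0605). Its other probe sets, 204388_s_at and 204389_at, had changes of -0.49 and -0.60, so that all 3 were lower on both celastrol arrays. GCH1, which makes the cofactor for the enzymes upstream of DDC, had a change of -0.28 (SE 0.0578, limma adjusted p = 0.153). Of 6 measured neuroendocrine markers, 2 were tested and 0 passed, 1 of them at an unadjusted limma p under 0.05, against the same 18.8%. The summed intensity of the 6 was 181 and 177 with celastrol, 186 and 183 on DMSO replicates 1 and 2 and 164 on DMSO replicate 3.

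BCHE encodes butyrylcholinesterase, which hydrolyses acetylcholine and other choline esters. It stood at the identical level of 7.37 on both celastrol arrays, against 7.43 and 7.46 with DMSO, and at 3.78 on DMSO replicate 3. The groups did not overlap, but the change was only -0.07 (SE 0.0283, 95% interval -0.16 to 0.02, limma adjusted p = 0.343). Of 4 measured genes of cholinesterases and acetylcholine handling, 1 was tested and did not pass. It had an unadjusted limma p under 0.05, as did 18.8% of all probe sets tested. That gene, COLQ, which encodes the collagen tail of acetylcholinesterase, had 5.33 and 5.32 with celastrol and 5.06 on both DMSO arrays, a change of 0.27 (SE 0.0257, limma adjusted p = 0.0695).

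MET encodes the receptor tyrosine kinase for hepatocyte growth factor. Of its 4 probe sets, 3 were below the filter on brightness and the fourth, 203510_at, was just above it, at 4.57 and 4.77 with celastrol and 4.59 and 4.54 with DMSO. The groups overlapped, and the change was 0.10 (SE 0.0838, 95% interval -0.16 to 0.36, limma adjusted p = 0.57). The other 3 probe sets had changes of -0.08 or nearer to 0. On DMSO replicate 3 the 4 probe sets stood between 4.15 and 4.59, so MET was near the lower end of the scale on all 5 arrays and a change in it could not be read.

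The ligand, activators and adaptors of MET were all measured, 12 genes of which 9 were tested and 0 passed, 2 at an unadjusted limma p under 0.05 against 18.8% of all probe sets tested, with 8 changes below 0 and a median of -0.08. SPINT2, an inhibitor of the proteases that activate hepatocyte growth factor, had 10.51 and 10.52 with celastrol and 10.60 and 10.67 with DMSO, a change of -0.13 (SE 0.0368, limma adjusted p = 0.239). SHC1, an adaptor of receptor tyrosine kinases, had a change of 0.10 (SE 0.0322, limma adjusted p = 0.258).

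Over all 18 probe sets the changes ran from -1.52 to 0.10 with a median of -0.15, against 0 over all probe sets. For 11 of the 18 both celastrol arrays lay below both DMSO arrays, against 17.6% of all probe sets. For 0 of 18 both lay above, against 14.5% of all probe sets. All 11 were among the 13 members bright enough to be tested, against 25.6% of all probe sets tested. The genes were listed with earlier results of these data known, so these counts describe them only. Identical values between arrays, which RMA can give, count as overlap only when they fall in different groups. The 2 celastrol arrays held identical values for 6 of the 18 member probe sets and for 19.3% of all probe sets, and DMSO replicates 1 and 2 for 1 of the 18 and 17.7% of all. The spread behind the values of PRKACB, BCHE and UGT2B17 therefore comes from the DMSO arrays and from the variance that limma borrows from other probe sets.

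Further genes reported as lowered by androgen in prostate cells were compared with the members. Of 7 measured, all 7 were tested and had changes below 0, 1 fell, and the median was -0.09. On the lower side 0.47% of the 8091 genes tested by 1 probe set each passed. An unadjusted limma p under 0.05 was reached by 3 of the 7, against 18.8% of all probe sets tested. CAMK2N1, an inhibitor of calcium/calmodulin-dependent kinase II, fell to 10.55 and 10.54 with celastrol, against 11.41 and 11.45 with DMSO, a change of -0.89 (SE 0.0306, a 1.85-fold lower intensity, limma adjusted p = 0.0322). IGFBP3, an insulin-like growth factor binding protein, had 8.49 and 8.62 with celastrol and 9.39 and 9.46 with DMSO, a change of -0.87 (SE 0.0648, limma adjusted p = 0.0605). FOLH1, prostate-specific membrane antigen, had a change of -0.08 (SE 0.0362).

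Genes that androgen raises also had changes below 0, as did 7478 of the 13329 probe sets tested. Of 17 measured androgen-induced genes 12 were tested, all 12 had changes below 0, 1 fell when each gene was read by its brightest probe set, and the median was -0.40. Of these 12, 7 had an unadjusted limma p under 0.05, against 18.8% of all probe sets tested. TMPRSS2, a membrane protease gene, fell to 6.36 and 6.27 with celastrol, against 7.38 and 7.41 with DMSO (change -1.08, SE 0.0473, limma adjusted p = 0.0387). C1orf116 fell on its probe set 219856_at, with a change of -0.98 (SE 0.0625, limma adjusted p = 0.0491), while its brighter probe set had a change of -0.93 and an adjusted p of 0.078. Among 8091 genes represented by 1 probe set each, 0.47% passed on the lower side and 0.569% on the higher side. Whether the induced and repressed genes differ from each other was not tested.

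**Figure D3:**
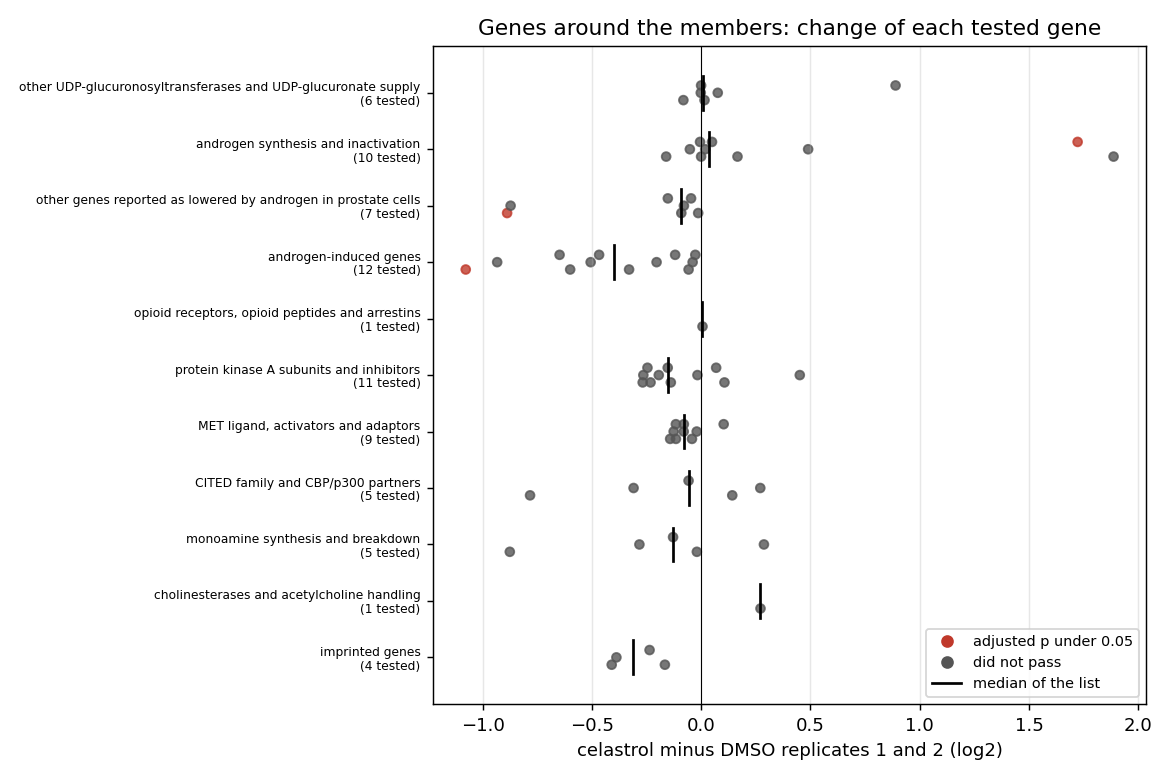
Change of each tested gene in 11 gene lists around the members, celastrol minus DMSO replicates 1 and 2 on the log2 scale; each point is 1 gene, represented by its brightest probe set, and a bar marks the list's median. AKR1C1 is called at 1.72, and CAMK2N1 and TMPRSS2 are called at -0.89 and -1.08; all 12 androgen-induced genes and all 7 further androgen-repressed genes lie left of 0.

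Compared with the mean of DMSO replicates 1 and 2, 11 of the 18 member probe sets were over 2-fold lower on DMSO replicate 3, against 10.1% of all probe sets. All 11 were among the 13 bright enough to be tested, against 16.9% of all probe sets tested. The filter used only the 4 arrays compared, and DMSO replicate 3 had been set apart for its profile. These counts therefore describe that array and are not evidence about the members. The exceptions among the 18 were both probe sets of UGT2B15 alone, the second probe set of DDC and the 4 probe sets of MET. With DMSO replicate 3 counted among the controls the median change of the members was 0.11, that of PEG3 was 0.66 and 0.14, and 0 of the members passed in limma. In that fit 0 of the 13 tested had an unadjusted p under 0.05, against 3.18% of all probe sets tested. The change of OPRK1 was -0.81 and that of CITED2 209357_at -0.29 in that fit, whose controls include this array.

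**Figure D4:**
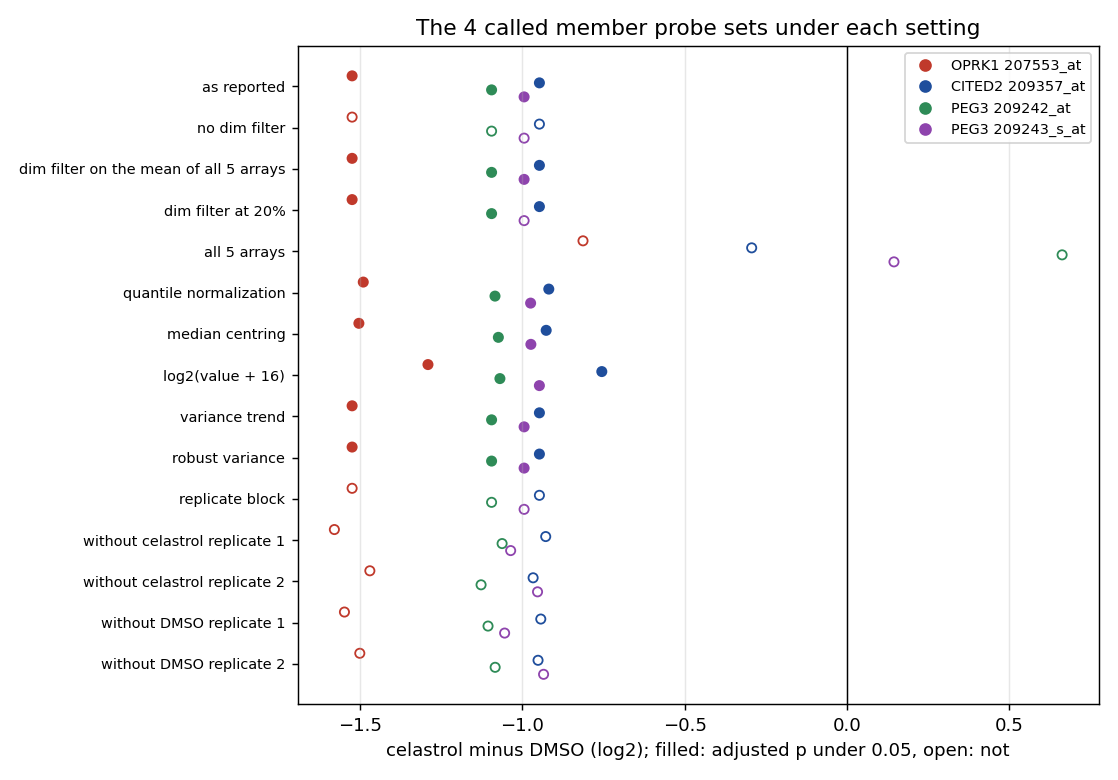
Change of the 4 called member probe sets, celastrol minus DMSO on the log2 scale, under each setting of the analysis; filled points have an adjusted p under 0.05. Changes lie left of 0 under every setting shown except with all 5 arrays, where PEG3 lies at 0.66 and 0.14, and points are open there, with no filter, with a replicate block, with any 1 array left out and, for PEG3 209243_s_at, with the filter at 20%.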

How the data were processed

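For each array the deposited table holds a linear intensity of every probe set. The authors made it with RMA, per the submitters' processing notes; the version and any genome build are not given in the sources used here. RNA was extracted with Trizol and labelled with biotin for Affymetrix arrays, per the labels' protocols. Groups follow the titles, since the description of the DMSO samples also speaks of celastrol. All 5 columns were used.

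Values were taken as log2(intensity + 1) and not normalized again. A single gene is named by 19724 of the 22215 probe sets, several by 568 and none here by 1923; a look-up by Entrez ID of 19707 changed 0 symbols. limma (version 3.58.1, R 4.3.3; lmFit and eBayes) compared 2 celastrol arrays with DMSO replicates 1 and 2, two-sided, after leaving out the 40% of probe sets dimmest over those 4 arrays, with Benjamini-Hochberg adjustment over the 13329 left. The replicates share a cell line, and p-values measure the spread between these arrays. Arrays with the same replicate number did not deviate together (r = -0.02 between the replicate differences of the groups).

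The members and lists, the filter and the exclusion of DMSO replicate 3 were chosen with earlier results of these data known. Named are every member probe set and, from each other list, genes with a called probe set or the 2 of smallest p. PRKACA, FOLH1, IGFBP3, UGT2B28, AKR1C2 and the marker genes were added after their values were seen. In simulated data of this comparison (13329 probe sets, 200 changed, 20 draws) 24.8% of changes of 0.5, 63.8% of 1 and 84.1% of 2 (log2) were recovered and 5.22% of calls were false. The number changed in the real data is not known, so these rates need not hold there. Alternatives covered the filter, the arrays, normalization, pseudocount, variance model and a replicate block. Promoters and motifs come from RefSeq (GRCh38.p14), aligned with Biopython 1.88.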

Additional observations from a re-analysis of the deposited data

How the results depend on the processing

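The count of called probe sets was 121 as reported and that of called member probe sets 4. With no filter on brightness these were 2 and 0, with the filter at 20% 32 and 3, PEG3 209243_s_at being lost, with all 5 arrays 0 and 0, and with a replicate block 0 and 0. At an unadjusted limma p under 0.05 the members numbered 8 as reported (18.8% of all probe sets tested), 8 with no filter (13.2%), 0 with all 5 arrays (3.18%), 8 with the block (15.7%) and between 6 and 10 with 1 array left out (20.6% to 22.3%). Quantile normalization gave 389 called probe sets and median centring 306, each with 5 member probe sets, the fifth being CITED2 207980_s_at; the cause was not tested. With any 1 of the 4 arrays left out both counts were between 0 and 0 and the members' median change ran from -0.17 to -0.15; with 1 array in a group, its spread is taken from the other group and few degrees of freedom remain. In the replicate block fit OPRK1, CITED2 209357_at and both PEG3 probe sets kept their changes with an adjusted p of 0.199; that fit has 1 residual degree of freedom and the numbers do not pair the arrays. With all 5 arrays the members' median was 0.11 and PEG3 turned to 0.66 and 0.14; there DMSO replicate 3 held PEG3 at 4.60 and 5.34. The filter over all 5 arrays, log2(value + 16) and both other variance models called the same 4 member probe sets. The low number of arrays limits every adjusted p, and the signal of dim probe sets, those of MET among them, limits what could be read.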
